A study of Drosophila melanogaster with 8 samples.

Results

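Blimp-1, vri and E23 are ecdysone-responsive genes of the fly that act around the larval to prepupal transition, and open chromatin at these 3 genes was compared between wing discs, leg discs, salivary glands and wing discs with EcR-RNAi. Regions were taken where the region centre lay in the gene body or within 10 kb of it, with gene positions from the RefSeq table of the dm6 assembly. This gave 29 of the 13008 regions in the authors' deposited comparison tables, 8 at Blimp-1, 12 at vri and 9 at E23. By the same rule, 164 of 91341 peaks in the authors' 4 peak lists lay at these genes.

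Ecdysone is the steroid hormone that times moulting and metamorphosis, and it acts through a nuclear receptor made of EcR and Usp that switches on a short cascade of early and late genes. Blimp-1 encodes a zinc finger repressor that is induced by ecdysone and then decays, and it represses ftz-f1, the competence factor of the prepupal stage, so its decay sets the time at which ftz-f1 comes on. The gene vri encodes a bZIP repressor that responds to ecdysone in larvae and prepupae and that also represses Clk in the circadian clock. E23 encodes an ABC transporter of the white type that is induced by ecdysone and that dampens the ecdysone response when overexpressed.

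FAIRE-seq recovers DNA of low nucleosome occupancy from the aqueous phase of a phenol extraction, and the recovered DNA is sequenced. The 8 libraries came from female larvae at the wandering stage, labelled -6 h relative to puparium formation and raised at 25 °C, with at least 40 dissected organs each, in 4 groups of 2. Wild type (WT, genotype +/+; +/+; +/+) wing discs, leg discs and salivary glands formed the first 3 groups. The EcR-RNAi wing discs carried yw, Vg-GAL4, UAS-Flp, the Tub>>CD2>>GAL4 flip-out cassette, UAS-GFP and UAS-EcR-RNAi[104], so that GAL4 is on in cells of the vg lineage and stays on in their descendants, while other cells of the disc do not get the hairpin. The WT wing discs lack all of these transgenes and the yw chromosome, so genetic background and EcR-RNAi cannot be told apart in that comparison. Nothing in the labels says that both libraries of a group had separate animals or days behind them, so the p-values reflect spread that may be technical.

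A region counted as different, or called, when its adjusted p in the authors' deposited table was under 0.05 and its log2 fold change reached 1 in size, with p adjusted over the whole table. Values per library were not used here, and their depth is unknown. The error of each fold is given by its standard error (SE), whose median was 0.22 on the log2 scale in each of the authors' deposited tables. Labels and tissue markers mostly went together. Among regions with an adjusted p at vg, nub, ap and bs, 16 of 40 were called higher in wing than leg and 1 lower in the authors' deposited table. Of all regions, 2.04% were called higher in wing than leg and 2.21% higher in leg. The calls lay mainly at vg, with 7 higher in wing, and bs, with 8, while nub had 1 in each direction and ap had 0. At Sp1, btd, H15, Lim1 and Antp, 15 of 64 were called higher in leg and 0 in wing in the authors' deposited table. At the gland genes fkh, CrebA, sage, Sgs3, Sgs4, toe and eyg, 14 of 38 were called higher in gland than wing and 4 lower in the authors' deposited table. Of all regions, 12.7% were called higher in gland than wing and 21.1% lower. Among these genes Sgs3 had 0 called between wing and gland, and toe and eyg had 1 in each direction. EcR RNA was not measured; inside the EcR gene a region at 2R 6093263 to 6094021 was 4.72-fold higher in EcR-RNAi wing (SE 0.23 on the log2 scale, adjusted p = 1.86e-19) in the authors' deposited table. The part of EcR-RNAi transgene sequence in that EcR value was not tested. Peak names in the gland list carry the prefix EcRmimic, unlike those of WT wing and leg, and what it stands for was not settled here. Among gland peaks with a WT wing peak centre within 250 bp, the gland centre lay a median of 60.0 bp lower in coordinate. The same median for leg peaks was 0 bp. DNA copy number, which varies along the polytene chromosomes of the gland, was not measured, so copy number and openness cannot be told apart there. Fewer open cells in a tissue and less signal per cell cannot be told apart either.

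The genes differed in where their open regions lay. Blimp-1 occupies 3L 5630983 to 5652094, and 6 of its 8 regions had centres below its low-coordinate end, with only 2 in the gene body. Both of these lay in the first 3.25 kb, and the remaining 17.5 kb of the body held no compared region. The vri gene occupies 2L 5288944 to 5311223, with 2 regions below its low end and 10 in the body, spread over 1.32 to 17.67 kb from that end. E23 occupies 2L 3334875 to 3354829, with 8 regions in the body from 3.86 to 18.16 kb and 1 across its high-coordinate end. The gene table gives no strand or exons, so neither transcription starts nor exonic and intronic positions were assigned. Only 1 of the 29 centres lay inside another gene: vri region 1 lies within the long noncoding RNA genes lncRNA:CR44742 and lncRNA:CR44743. Regions are numbered below in order of coordinate within each gene.

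**Figure D1:**
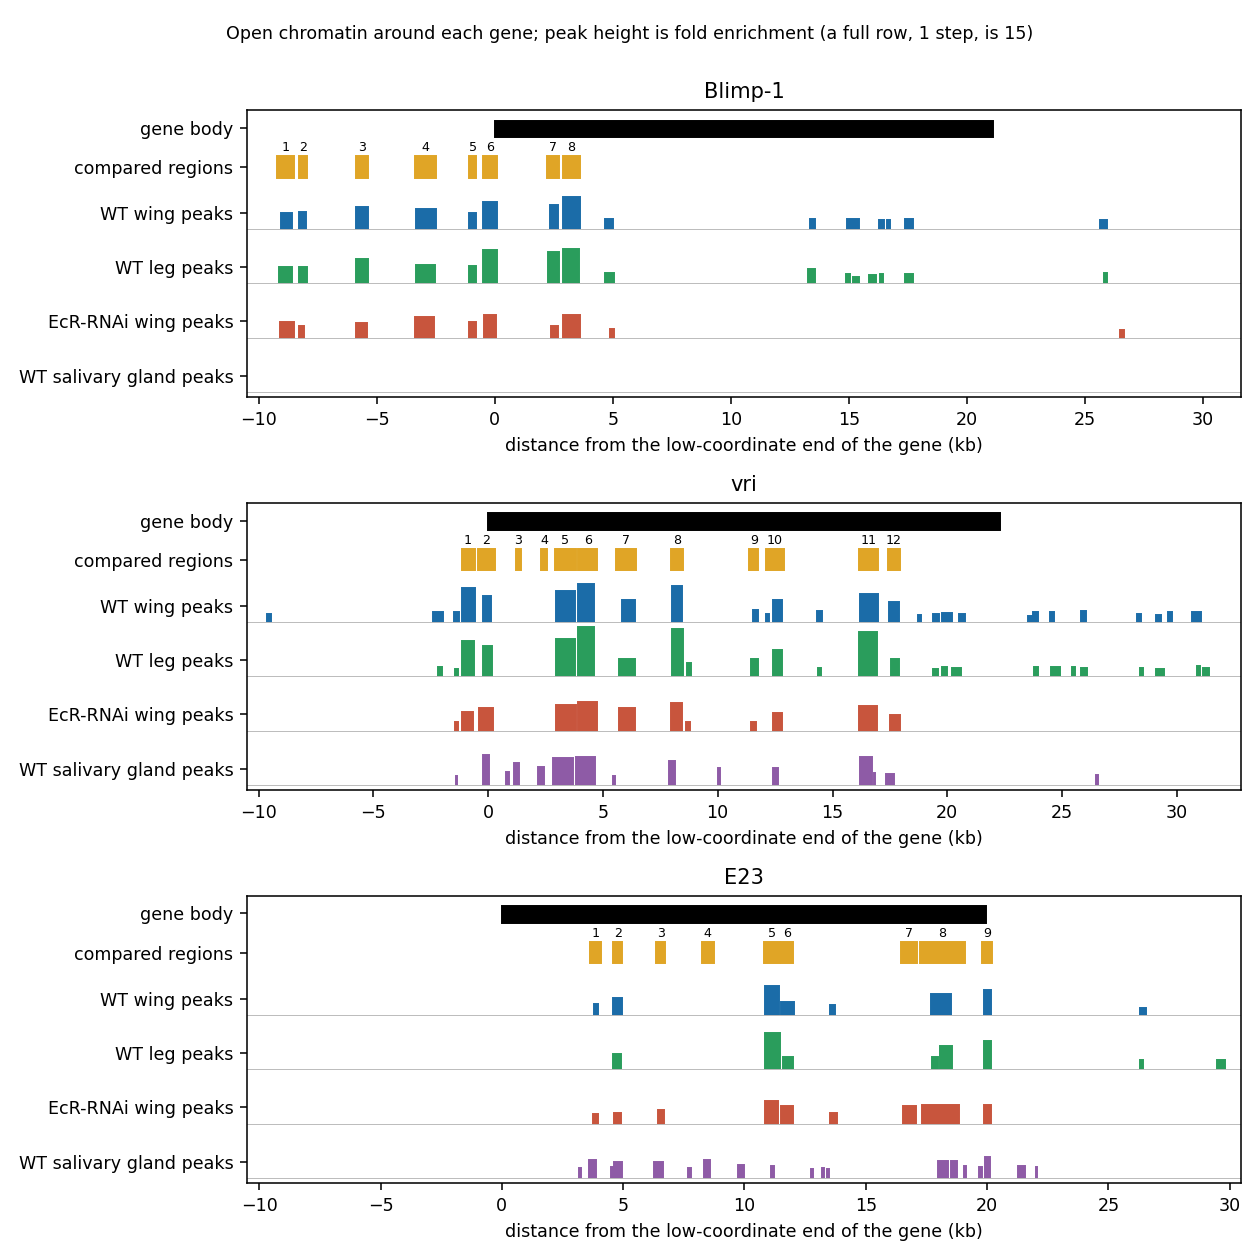
Map of each gene with distance in kb from its low-coordinate end on the x axis; the black bar is the gene body, yellow boxes are the numbered compared regions, and the 4 lower rows show the peaks of each merged list, with height giving the authors' fold enrichment within that list. The gland row is empty across the whole Blimp-1 window, while at E23 the gland list has 19 peaks against 8 in WT wing. The median percentile of fold enrichment of these E23 peaks within their own list was 30.5 for gland and 75.8 for WT wing.

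At Blimp-1, every region was more open in both discs than in salivary gland. In the authors' deposited tables all 8 regions were called higher in wing than gland, where 21.1% of all regions were called in that direction, and all 8 were called higher in leg, against 22.6% of all regions. The log2 folds ranged from 1.21 to 2.42 for wing over gland (median 1.62, against 0.18 over all regions) in the authors' deposited table. For leg over gland they ranged from 1.35 to 2.58 (median 1.84, against 0.17 over all regions) in the authors' deposited table. The gland list held no peak in this window, whereas WT wing had 15, WT leg 16 and EcR-RNAi wing 10. Peaks and folds come from libraries of the same groups, so the missing gland peaks are not separate support for the folds. All 8 regions overlapped a peak of each of the 3 disc lists by at least 1 bp. The authors' overlap column, however, marks no EcR-RNAi wing peak at regions 2 and 7. The listed EcR-RNAi wing peaks there each had a fold enrichment of 3.13. Each of these 16 calls held when the folds were centred on all regions or on those near gene ends. Centring shifted the split of all regions between wing and gland from 2751 higher in wing and 1647 in gland to 2147 and 2250 in the first case and to 4114 and 1000 in the second. For leg and gland the split went from 2934 and 1725 to 2357 and 2253, and to 4266 and 1090.

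Blimp-1 region 8, at 3L 5633852 to 5634611 inside the gene body, had the highest contrast. With WT wing set to 1, its signal from the folds of the authors' deposited tables was 1.12 in leg, 0.813 in EcR-RNAi wing and 0.187 in gland. The gland stood below the 3 disc groups. Wing exceeded gland with a log2 fold of 2.42 (SE 0.16, adjusted p = 2.16e-48) and leg exceeded gland by 2.58 (SE 0.16, adjusted p = 2.58e-54) in the authors' deposited tables. Its peaks ranked at percentile 97.4 of fold enrichment in the WT wing list, 94.9 in the WT leg list and 93.2 in the EcR-RNAi wing list.

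Blimp-1 region 6, at 3L 5630471 to 5631061, holds the low-coordinate end of the gene. Relative to WT wing at 1 it stood at 1.17 in leg, 0.721 in EcR-RNAi wing and 0.208 in gland in the authors' deposited tables. The gland was again the lowest group. The log2 fold was 2.26 (SE 0.21, adjusted p = 9.57e-25) for wing over gland and 2.49 (SE 0.21, adjusted p = 1.57e-29) for leg over gland in the authors' deposited tables. The 5 regions farther out in the flank had smaller values, from 1.21 at region 5 (SE 0.26, adjusted p = 1.38e-05) to 1.71 at region 4 (SE 0.17, adjusted p = 8.17e-22) for wing over gland in the authors' deposited table. These 5 lay between 0.95 and 8.87 kb from the gene.

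Markers of other cell types that a disc preparation can hold also had regions called higher in wing than gland, where 21.1% of all regions were. At the adult muscle precursor genes twi, Mef2, zfh1 and htl, 16 of 33 regions were called higher in wing than gland (48.5%) and 3 lower in the authors' deposited table. For the tracheal genes trh, vvl and btl these were 9 of 18 and 0, for the haemocyte genes srp, Hml and gcm 2 of 4 and 1, and for the fat body genes Lsp1beta, Lsp1gamma, Adh and Lsp2 2 of 12 (16.7%) and 1 in the authors' deposited table. The only region at htl was higher in gland, and Hml and Lsp1beta had no region. The part of these cells in the Blimp-1 values was not tested.

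Between WT and EcR-RNAi wing, a single Blimp-1 region passed the test. In the authors' deposited table, 1 of 8 regions was called higher in WT wing, where 1.24% of all regions were, and 0 were called lower, where 0.789% were. With folds centred on all regions, the split of all regions went from 156 in favour of WT and 99 in favour of EcR-RNAi to 107 and 137. That region is number 7, at 3L 5633198 to 5633720 in the gene body, where WT wing exceeded EcR-RNAi wing with a log2 fold of 1.09 (SE 0.24, adjusted p = 0.000478) in the authors' deposited table. EcR-RNAi wing stood at 0.470 of WT wing there, gland at 0.321 and leg at 1.33 in the authors' deposited tables. Region 7 thus had its lowest values in gland and EcR-RNAi wing. Region 8 begins 131 bp farther on and stood at a log2 fold of 0.30 (SE 0.14, adjusted p = 0.139) for WT over EcR-RNAi wing, per the authors' deposited table. At an unadjusted p under 0.05, 5 of the 8 Blimp-1 regions were higher in WT wing and none in EcR-RNAi wing, per the authors' deposited table, against 2664 and 1468 of all regions. The folds of WT over EcR-RNAi wing ranged from -0.19 at region 1 to 1.09, with a median of 0.39 against 0.08 over all regions, in the authors' deposited table.

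The EcR-RNAi wing and the gland were not compared in a table of their own. The difference between the wing over gland fold and the WT over EcR-RNAi fold, which has no SE here, was 2.12 at region 8, 1.79 at regions 4 and 6, and 0.55 at region 7 in the authors' deposited tables. It was between 0.85 and 1.45 at regions 1, 2, 3 and 5.

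**Figure D2:**
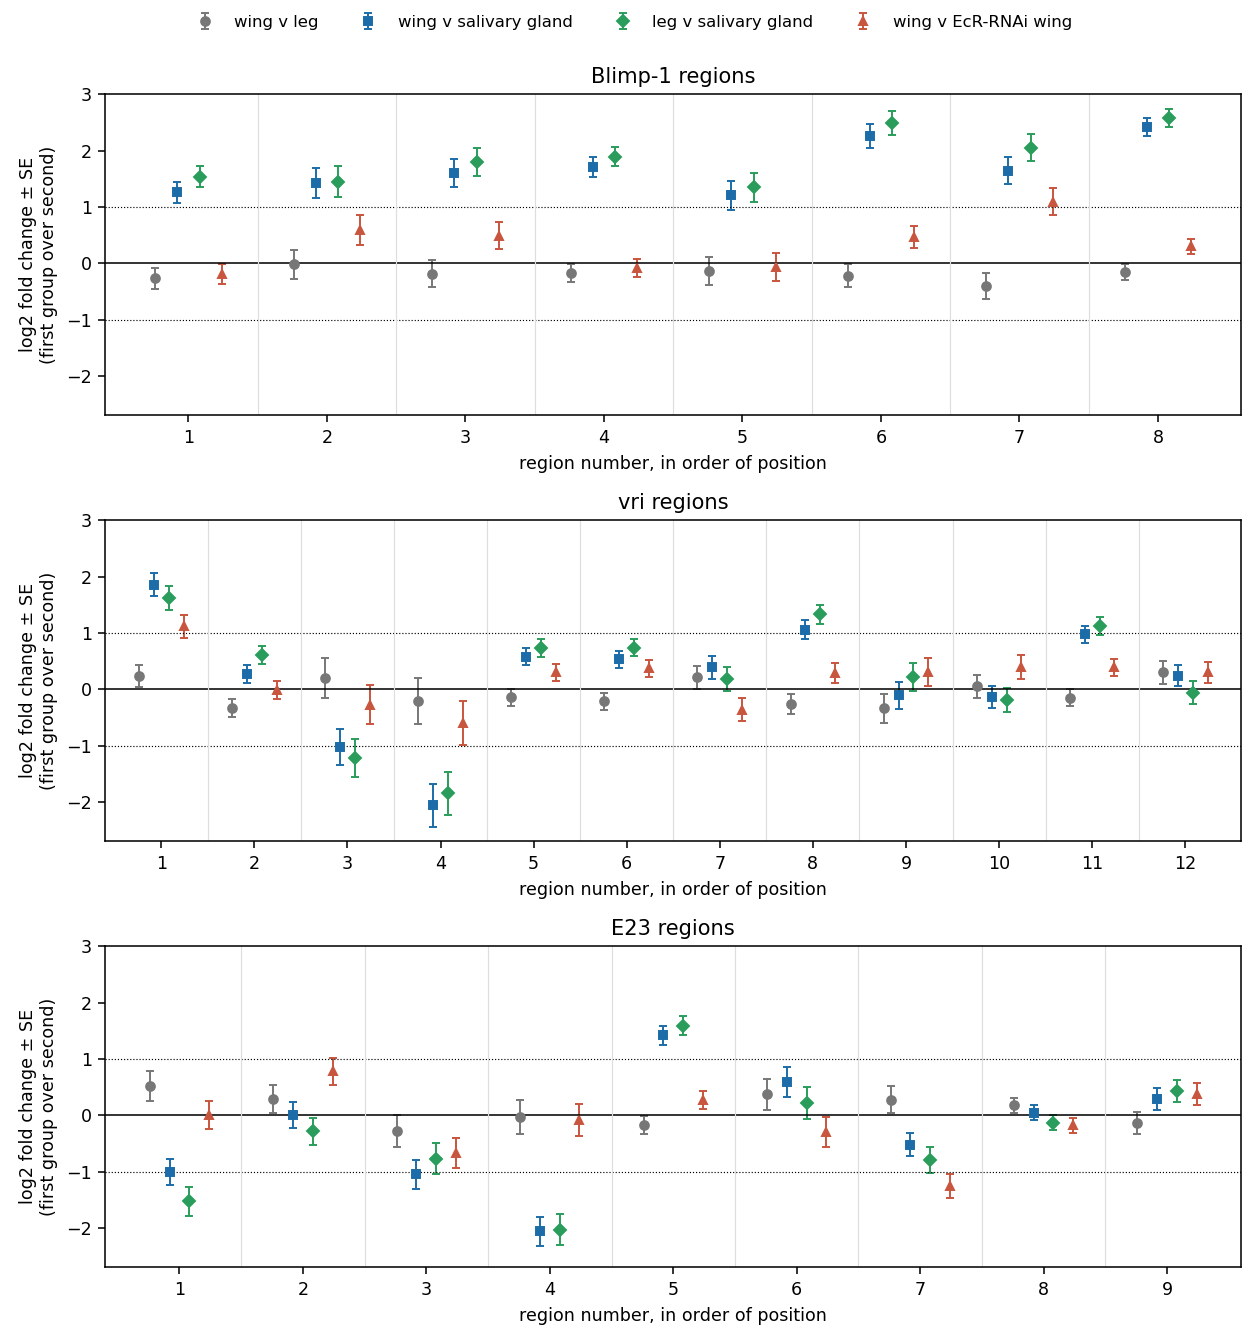
Log2 fold change with its SE (vertical bars) for each numbered region of Blimp-1, vri and E23 in the 4 comparisons of the authors' deposited tables; dotted lines mark a log2 fold of 1 in either direction. All Blimp-1 regions lie above 1 in both disc against gland comparisons, vri and E23 regions lie on both sides of 0, and the wing against leg values stay between -0.41 and 0.52.

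At vri, some regions were more open in the discs and others in the gland. In the authors' deposited table, 2 of 12 regions were called higher in wing than gland and 2 higher in gland, 16.7% each, where 21.1% and 12.7% of all regions were. For leg against gland the authors' deposited table gave 3 higher in leg (25.0%) and 2 in gland (16.7%), where 22.6% and 13.3% of all regions were. These shares were near those of all regions. Over all 3 genes 16 of 29 regions were called in each of these comparisons, where 33.8% of all regions were for wing and 35.8% for leg, in the authors' deposited tables. The median log2 fold over the 12 vri regions was 0.34 for wing over gland and 0.42 for leg over gland in the authors' deposited tables. Another 3 regions had an adjusted p under 0.05 and a smaller fold in favour of wing in the authors' deposited table.

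The region most in favour of the discs was vri region 1, at 2L 5287784 to 5288350, whose centre lies 0.877 kb below the gene. With WT wing at 1 it stood at 0.848 in leg, 0.460 in EcR-RNAi wing and 0.276 in gland in the authors' deposited tables. Leg and wing were high, gland was lowest and EcR-RNAi wing lay between them. The log2 fold was 1.86 for wing over gland (SE 0.20, adjusted p = 2.98e-18) and 1.62 for leg over gland (SE 0.21, adjusted p = 9.5e-14) in the authors' deposited tables. The gland list had no peak at this region, and the other 3 lists each had 1.

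The neighbouring vri region 2, at 2L 5288501 to 5289221, begins 150 bp after region 1 ends and holds the low-coordinate end of the gene. It was open in all 4 groups, at 1.26 in leg, 1.01 in EcR-RNAi wing and 0.825 in gland relative to WT wing at 1 in the authors' deposited tables. The log2 fold of wing over gland was 0.28 (SE 0.16, adjusted p = 0.104), and that of leg over gland was 0.61 (SE 0.16, adjusted p = 0.000265), under the fold threshold, in the authors' deposited tables. Its gland peak had the highest fold enrichment of the gland peaks at vri, at percentile 99.1 of that list.

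Inside the vri body, regions 3 and 4 favoured gland. Region 4, at 2L 5291265 to 5291528, stood at 4.16 in gland, 1.51 in EcR-RNAi wing and 1.16 in leg relative to WT wing at 1, per the authors' deposited tables. The gland was the highest group, with a log2 fold of -2.06 for wing over gland (SE 0.38, adjusted p = 4.73e-07) and -1.85 for leg over gland (SE 0.38, adjusted p = 1.14e-05) in the authors' deposited tables. Region 3, at 2L 5290173 to 5290363, had -1.02 (SE 0.32, adjusted p = 0.00371) and -1.22 (SE 0.34, adjusted p = 0.00112) in the authors' deposited tables. Both regions overlapped a peak in the gland list only, and their mean normalized counts of 38.1 and 38.9 were the lowest of the 29 regions. The call at region 3 ended in both comparisons when folds were centred on regions near gene ends, at -0.71 and -0.91.

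Regions 8 and 11 of vri favoured the discs. Region 8, at 2L 5296899 to 5297417, had a log2 fold of 1.06 for wing over gland (SE 0.17, adjusted p = 4.4e-09) and 1.33 for leg over gland (SE 0.17, adjusted p = 1.99e-13) in the authors' deposited tables. Region 11, at 2L 5305096 to 5305914, was called for leg over gland at 1.13 (SE 0.16, adjusted p = 3.58e-12) and stood at 0.98 for wing (SE 0.15, adjusted p = 1.62e-09) in the authors' deposited tables. With folds centred on all regions, the call at region 8 for wing ended at 0.89 and that at region 11 for leg at 0.96. Unlike regions 3 and 4, both overlapped peaks of all 4 lists. The broad regions 5 and 6, at 2L 5291857 to 5292752 and 5292848 to 5293706, had log2 folds of 0.58 (SE 0.15) and 0.53 (SE 0.15) for wing over gland in the authors' deposited table. The peak at region 6 had the highest fold enrichment of the vri peaks in the WT wing, WT leg and EcR-RNAi wing lists, at percentiles 99.6, 99.6 and 99.2.

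One vri region differed between WT and EcR-RNAi wing, and it was region 1. WT wing exceeded EcR-RNAi wing there with a log2 fold of 1.12 (SE 0.20, adjusted p = 5.72e-06) in the authors' deposited table. Region 2 next to it stood at -0.01 (SE 0.16, adjusted p = 0.979) in the authors' deposited table. The other 11 vri regions had no adjusted p under 0.05, with values from -0.60 at region 4 (SE 0.39) to 0.40 at region 10 (SE 0.21) in the authors' deposited table. At an unadjusted p under 0.05, 4 of 12 were higher in WT wing and none in EcR-RNAi wing, per the authors' deposited table, against 2664 and 1468 of the 13008 regions. The median over vri regions was 0.30, against 0.08 over all regions, in the authors' deposited table.

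At E23 the gland was the more open tissue at most called regions, although 2 of the 3 gland calls against wing ended once folds were centred near gene ends. In the authors' deposited table, 3 of 9 regions were called higher in gland than wing and 1 higher in wing, where 12.7% and 21.1% of all regions were. For leg against gland, 2 were called higher in gland and 1 in leg, per the authors' deposited table, where 13.3% and 22.6% of all regions were. For each disc, 1 of 9 E23 regions (11.1%) was called in its favour, which is too few regions to tell from the share of all regions. The median log2 fold was 0.01 for wing over gland and -0.28 for leg over gland in the authors' deposited tables. The gland list held 19 peaks in the E23 window, against 8 in WT wing, 8 in WT leg and 9 in EcR-RNAi wing, although the whole gland list is the shortest, with 16840 peaks against 29283 in WT wing. The gland peaks were narrow, with a median width of 145 bp against 296 bp in WT wing, and the summed widths were 3474 and 3168 bp. They were also weak within their own list, at a median percentile of fold enrichment of 30.5, against 75.8 for the WT wing peaks. Only the gland peak at region 9 reached a −log10 q-value of 10, at 11.5. Several peaks of each disc list did, so the order of the counts does not hold at that cut. The cut is not alike between lists, however. The gland peak at region 9 ranked at percentile 86.0 of fold enrichment in its list. The WT wing peak at region 6 ranked at percentile 70.2 and had a −log10 q-value of 12.0.

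E23 region 4, at 2L 3343123 to 3343600, was the most gland-biased. It stood at 4.18 in gland, 1.05 in EcR-RNAi wing and 1.02 in leg relative to WT wing at 1, per the authors' deposited tables. The gland was high, and the 3 disc groups lay between 1 and 1.05. The log2 fold was -2.06 for wing over gland (SE 0.26, adjusted p = 9.98e-14) and -2.03 for leg over gland (SE 0.27, adjusted p = 4.51e-12) in the authors' deposited tables. The gland list, which comes from the same group as these gland values, alone had a peak there. Region 1, at 2L 3338516 to 3338955, had -1.01 (SE 0.23, adjusted p = 5.38e-05) and -1.53 (SE 0.26, adjusted p = 2.24e-08) in the authors' deposited tables. Region 3, at 2L 3341229 to 3341620, was called against wing at -1.05 (SE 0.26, adjusted p = 0.00022) and stood at -0.77 against leg (SE 0.27, adjusted p = 0.00873) in the authors' deposited tables. The calls of regions 1 and 3 against wing ended once folds were centred near gene ends, at -0.70 and -0.74.

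E23 region 5, at 2L 3345701 to 3346322, went the other way. Relative to WT wing at 1 it stood at 1.13 in leg, 0.831 in EcR-RNAi wing and 0.375 in gland in the authors' deposited tables. Its log2 fold was 1.42 for wing over gland (SE 0.17, adjusted p = 2.52e-16) and 1.59 for leg over gland (SE 0.17, adjusted p = 5.08e-20) in the authors' deposited tables. It lies 2100 bp above region 4, so the most gland-biased and the most disc-biased regions of E23 are neighbours. Its peak had the highest fold enrichment of the E23 peaks in each of the 3 disc lists, at percentile 95.9 in WT wing, 95.6 in WT leg and 92.0 in EcR-RNAi wing.

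The broad region 8, at 2L 3352123 to 3353945, and region 9, at 2L 3354669 to 3355080 over the high-coordinate end, were open in all 4 groups and called in no comparison. Their log2 folds for wing over gland were 0.05 (SE 0.13, adjusted p = 0.739) and 0.29 (SE 0.20, adjusted p = 0.197) in the authors' deposited table. Region 8 had the highest mean normalized count of the 29 regions, 470.0, and is also the widest at 1823 bp.

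E23 region 7 was more open in EcR-RNAi wing. At 2L 3351346 to 3351983 in the gene body, EcR-RNAi wing exceeded WT wing by 2.38-fold (log2 fold of WT over EcR-RNAi -1.25, SE 0.21, adjusted p = 6.87e-07) in the authors' deposited table. Relative to WT wing at 1 the region stood at 2.38 in EcR-RNAi wing, 1.43 in gland and 0.822 in leg in the authors' deposited tables. By an overlap of at least 1 bp with any listed peak, it is the only one of the 29 regions with a peak in the EcR-RNAi wing list alone. The authors' overlap column marks E23 region 6 for EcR-RNAi wing alone as well. Region 8, which begins 139 bp farther on, stood at -0.18 (SE 0.13, adjusted p = 0.341) in the authors' deposited table. Region 2, at 2L 3339468 to 3339830, had a value in the other direction, 0.78 higher in WT wing (SE 0.24, adjusted p = 0.0168), under the fold threshold, in the authors' deposited table. At an unadjusted p under 0.05, 1 of the 9 E23 regions was higher in WT wing and 2 in EcR-RNAi wing, per the authors' deposited table. Over the 13008 regions these counts were 2664 and 1468. The median over the 9 regions was -0.08, against 0.08 over all regions, in the authors' deposited table.

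Across the 3 genes, 3 of 29 regions were thus called between WT and EcR-RNAi wing, per the authors' deposited table, 1 at each gene, where 2.03% of all regions were called. Of these 3, Blimp-1 region 7 and vri region 1 were also called higher in both discs than gland, as were 16.4% of all regions. All 8 Blimp-1 regions were, so this does not set region 7 apart from the others at that gene. E23 region 7 had an adjusted p of 0.0256 for wing against gland (log2 fold -0.52, SE 0.21) and 0.0013 for leg against gland (-0.80, SE 0.23), both lower in the discs and under the fold threshold, in the authors' deposited tables. The wing against gland and WT against EcR-RNAi comparisons share the WT wing libraries, so a deviation of those libraries at a region enters both values.

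**Figure D3:**
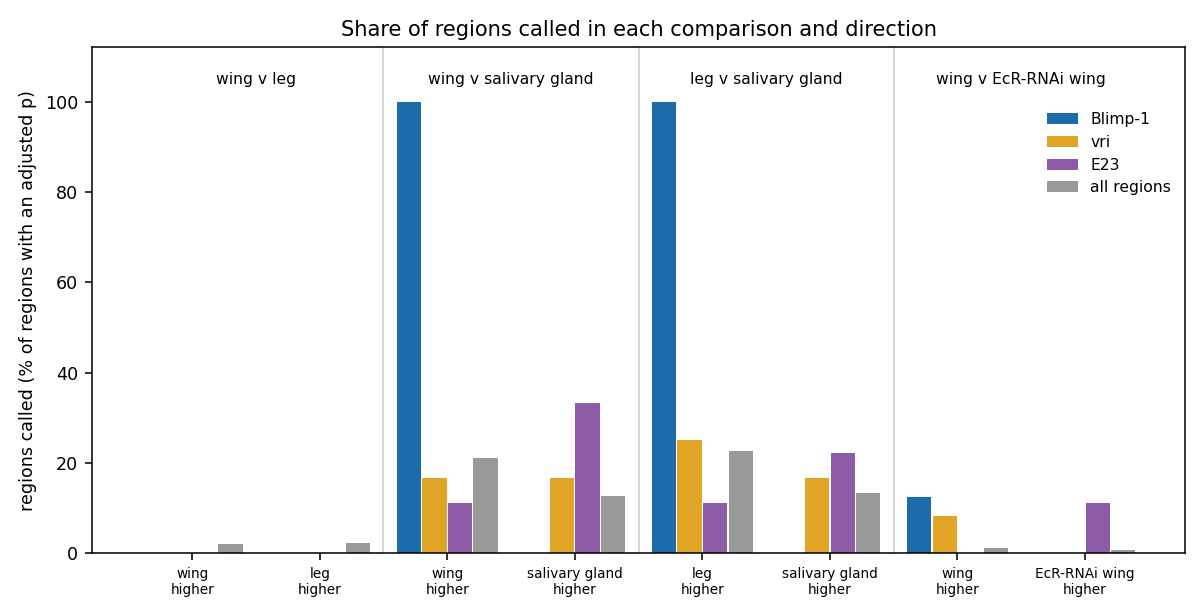
Bars starting at 0 give the share of regions called in each comparison and direction, as a percentage of regions with an adjusted p, for Blimp-1 (8 regions), vri (12), E23 (9) and all regions. All 8 Blimp-1 regions are called in both disc over gland columns, where all regions stand at 21.1% and 22.6%, and no region of these genes is called between wing and leg.

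No region at these genes passed the test between wing and leg discs. In the authors' deposited table, 0 of 29 regions were called, where 4.24% of all regions were, 2.04% higher in wing and 2.21% higher in leg (DESeq2, per the submitters' processing notes). At an unadjusted p under 0.05, 0 were higher in wing and 1 in leg, vri region 2 at -0.34 (SE 0.16, adjusted p = 0.244), in the authors' deposited table. Over the 13008 regions these counts were 1057 and 1124. All 8 Blimp-1 regions had a value below 0, from -0.41 at region 7 to -0.02 at region 2, with none past the threshold, in the authors' deposited table. The values at E23 ranged from -0.28 to 0.52 in the authors' deposited table. The median SE over the 29 regions was 0.21 in the authors' deposited table, which limits how small a difference could be detected.

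Counted over all 3 genes, 11 of 29 regions were higher in both discs than gland and 4 were higher in gland than both discs in the authors' deposited tables, which is 37.9% and 13.8%, against 16.4% and 10.9% of all regions. Of the 11 regions higher in both discs, 8 were those of Blimp-1. Another 11 regions were called in none of the 4 comparisons, 7 of the 12 at vri and 4 of the 9 at E23. Among all 13008 regions, 7281 were called in none.

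Some peaks lay outside the compared regions. In the WT wing list, 7 of 15 peaks at Blimp-1, 16 of 27 at vri and 2 of 8 at E23 overlapped no compared region, and none of these had a fold enrichment above 2.99 in the authors' list. At Blimp-1 they lay from 4.86 kb inside the gene body to 4.83 kb beyond its high end. The outermost lay inside the neighbouring gene lin-28, and the others in the part of the body that held no compared region. At vri, the outside peaks beyond the high end had centres in the neighbouring genes CG14024 and Ncoa6. The lowest outside peak at vri lay in Bub1. The highest outside peaks of the other lists reached a fold enrichment of 4.68 in the gland list at vri, where the median of that list was 3.82, and 3.91 in the WT leg list at Blimp-1, where the median was 2.97. Of the 50 WT wing peaks at the 3 genes, 42 overlapped a WT leg peak, 27 an EcR-RNAi wing peak and 13 a gland peak by at least 1 bp. These are 84.0%, 54.0% and 26.0%, against 74.1%, 50.6% and 23.2% of all WT wing peaks. The gland share was 0 of 15 at Blimp-1, 8 of 27 at vri and 5 of 8 at E23. Of the 19 gland peaks at E23, 5 overlapped a WT wing peak (26.3%, against 44.7% of all gland peaks), and 10 overlapped no compared region, with fold enrichments of 2.38 to 3.61.

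**Figure D4:**
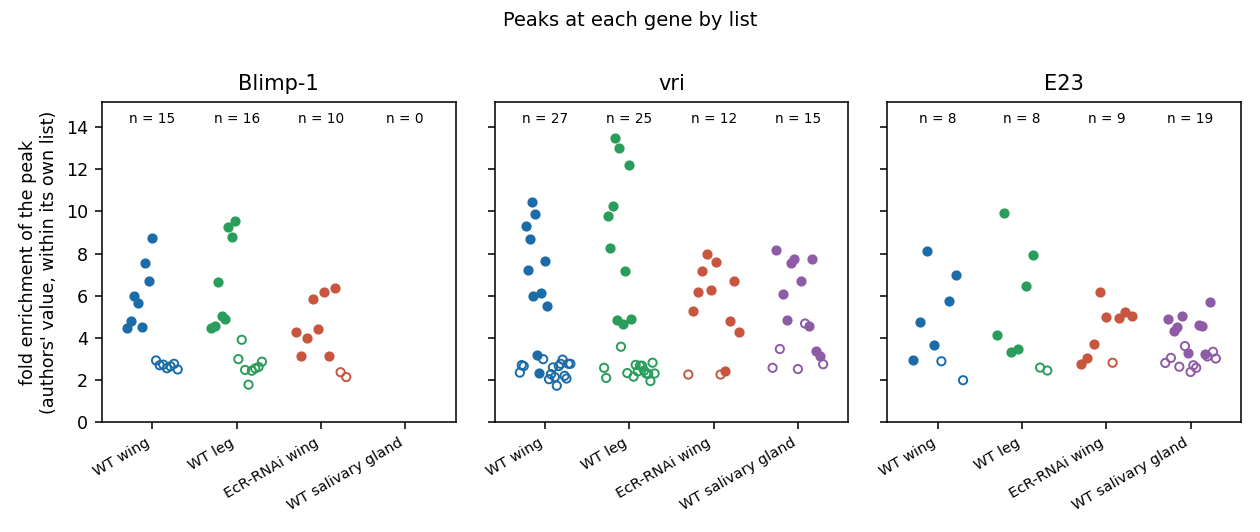
Each point is 1 peak at Blimp-1, vri or E23, with the authors' fold enrichment over local background on the y axis and points of a list in order of position; filled points overlap a compared region and open points do not. Open points stay at or below 4.68 in all 4 lists, and levels are to be read within a list, since each was called separately on merged libraries.

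The regions around each of these genes were called in both directions between wing and gland. Among the 34 regions within 200 kb of Blimp-1 other than its own, the median log2 fold was -0.06 for wing over gland, and 7 were called higher in wing and 4 in the gland, per the authors' deposited table. Just outside the window, at 13.44 kb below the gene, a region stood at 0.26 for wing over gland (adjusted p = 0.303), while the outermost member, at 8.874 kb, stood at 1.26 in the authors' deposited table. On the other side the nearest region lay 99.66 kb beyond the gene and stood at -1.16 in the authors' deposited table. The 64 regions around vri had medians of 0.38 for wing over gland and 1.05 for leg over gland in the authors' deposited tables, and 10 were called higher in leg than wing. Just outside the vri window, regions at 10.57 kb below and 14.21 kb above the gene stood at -0.92 and -0.14 for wing over gland in the authors' deposited table. The 36 regions around E23 had a median of -0.29 for wing over gland, with 5 called higher in wing and 6 in the gland, per the authors' deposited table. The nearest of these, 31.68 kb below and 18.19 kb above E23, stood at -1.14 and -0.35 in the authors' deposited table.

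Other genes of the ecdysone cascade had regions called in both directions. For 15 such genes, EcR, usp, br, Eip74EF, Eip75B, Eip78C, Eip71CD, Hr3, Hr4, Hr39, Hr38, ftz-f1, Eip93F, Kr-h1 and tai, 37 of 229 regions were called higher in wing than gland and 28 lower in the authors' deposited table, or 16.2% and 12.2%, where 21.1% and 12.7% of all regions were. The share higher in wing was below that of all regions, and the share higher in gland was near it. EcR had 13 of its 22 regions higher in wing than gland and 0 lower, while Eip75B, an early nuclear receptor gene, had 5 higher and 8 lower among 39 in the authors' deposited table. At ftz-f1, the target of Blimp-1, 1 of 14 regions was higher in wing and 2 in the gland, per the authors' deposited table. One ftz-f1 region, at 3L 18767266 to 18768493, was higher in EcR-RNAi than WT wing (log2 fold of WT over EcR-RNAi -1.08, SE 0.17) in the authors' deposited table. In all, 4 of 222 cascade regions with an adjusted p were called higher in WT wing and 6 in EcR-RNAi wing, per the authors' deposited table, where 1.24% and 0.789% of all regions were. EcR itself held 1 of these 4 and 3 of these 6. The part of EcR-RNAi transgene sequence in the EcR values was not tested.

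Circadian genes, the partners of vri in the clock, had 60 regions at 11 of 12 genes, of which 4 were called higher in wing than gland (6.67%) and 11 in the gland (18.3%), per the authors' deposited table, where 21.1% and 12.7% of all regions were. Pdp1, a bZIP activator that binds the same sites as vri, had 2 regions in each direction among 16, and cwo, a clock repressor, had 1 of 3 higher in gland (log2 fold of wing over gland -2.52, SE 0.29) in the authors' deposited table. Clk had no region. Between WT and EcR-RNAi wing, 0 of 55 were called higher in WT and 2 in EcR-RNAi wing, 1 at Pdp1 (-1.06, SE 0.20) and 1 at dco (-1.11, SE 0.27), in the authors' deposited table, where 1.24% and 0.789% of all regions were.

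Among the 14 other ABC transporter genes of the white type, 5 of 46 regions were called higher in wing than gland (10.9%) and 6 in the gland (13.0%), per the authors' deposited table, where 21.1% and 12.7% of all regions were. Of the 3 regions at st, an eye pigment transporter, 2 were called higher in wing than gland. Their wing over gland folds of 2.24 (SE 0.15) and 2.05 (SE 0.15) were the highest among the called regions of these genes in the authors' deposited table. Atet, a transporter that loads ecdysone for secretion, had 0 of 4 called between wing and gland and 1 called higher in leg than gland, per the authors' deposited table. That region, at 2L 4333064 to 4334320, had a log2 fold of 1.12 for leg over gland (SE 0.16, adjusted p = 6.97e-12) and 0.80 for wing over gland (SE 0.16, adjusted p = 1.65e-06) in the authors' deposited tables. Between WT and EcR-RNAi wing, 0 of 46 were higher in WT and 4 in EcR-RNAi wing, 2 of them at w, 1 at CG31689 and 1 at CG32091, in the authors' deposited table, where 1.24% and 0.789% of all regions were. The EcR-RNAi discs carry transgenes, and the part of transgene or stock sequence in the values at w was not tested; both w regions were also called higher in WT leg than WT wing (log2 folds of wing over leg -1.77 and -1.95) in the authors' deposited table. Of 30 regions at Oatp74D, which imports ecdysone, shd, which makes the active hormone, Cyp18a1, which inactivates it, and Atet, 4 were higher in wing than gland and 3 in the gland, per the authors' deposited table, where 21.1% and 12.7% of all regions were. Those higher in gland all lay at Oatp74D, and 0 of 28 were called between WT and EcR-RNAi wing, per the authors' deposited table.

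Genes with the most similar pattern were sought by the median fold over a gene's regions in 3 comparisons (wing against leg, against gland and against EcR-RNAi wing), among 9579 genes with at least 3 regions. Closest to Blimp-1 (-0.18, 1.62 and 0.39) were Spn43Ad (Euclidean distance 0.025 on the log2 scale), lncRNA:CR44918 and lncRNA:CR44919 (0.051 each), all from the authors' deposited tables. Closest to vri (-0.15, 0.34 and 0.30) were Adgf-D (0.038), CG13024 (0.041) and Arp10 (0.048), and closest to E23 (0.18, 0.01 and -0.08) were rgn (0.018), if (0.042) and CG15414 (0.069), from the authors' deposited tables. The 3 comparisons share the WT wing libraries, and with this many genes some are close to any pattern.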

How the data were processed

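The submitters' processing notes name DESeq2, R 3.5.2, MACS2 2.1.2, bedtools 2.26, Picard 2.2.4, SAMtools 1.9 and Bowtie2 2.3.4.1 for these FAIRE-seq libraries, and the build dm6, without settings. The authors deposited 1 peak list per group, from merged libraries, with a score, a fold enrichment (ratio to local background) and a −log10 q-value per peak; the gland list carries a size tag of 150 to 700. The authors deposited also 4 comparison tables over 1 set of regions, with a mean normalized count (a signal they scaled), a log2 fold change, its SE, a test statistic, and p-values before and after adjustment. Regions without an adjusted p (681 for wing against leg, 465 for wing against EcR-RNAi wing, none at the 3 genes) were not counted as called.

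Regions were assigned to genes by centre with Python 3.11.15, pandas 2.3.3, NumPy 2.4.6 and SciPy 1.17.1; nothing was refitted. Folds of the members were additive across the 3 WT tables. Fold over SE departed from the deposited statistic by over 5% at 4 values in all (3 against leg, 1 against gland), none of them called. Centring of folds, with p recomputed from fold and SE, was tested on simulated data. Table coordinates are printed as in the files. Every compared region at the 3 genes overlapped a peak of at least 1 list. How the authors drew the set of regions was not settled here. A region with peaks in some groups only may have entered the set through those groups, so these peaks are not separate support for its fold. Overlap of a region with a peak means at least 1 bp of any listed peak; this matched the authors' overlap column at 26, 28, 29 and 23 of 29 regions for WT wing, WT leg, gland and EcR-RNAi wing. Regions with full values are those called in any comparison, those holding a gene end, and their neighbours, the last chosen after values were seen. The genes, lists and tests were chosen with earlier results of these data known. The planned search for promoter motifs was not run, because no sequence was used here.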

Additional observations from a re-analysis of the deposited data

How the results depend on the processing

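The alternatives were no fold threshold, an adjusted p under 0.01, folds centred on all regions (their median) or on regions within 500 bp of a gene end, and the gene body alone or with 5 kb. Of 35 calls at single regions, all held without a fold threshold and at an adjusted p under 0.01, 33 held with folds centred on all regions and 31 with folds centred near gene ends. None reversed. Centring moved the scale by 0.18 and 0.17 (all regions) or -0.31 and -0.31 (near gene ends) for wing and leg over gland. With the second of these, 2 regions in place of 5 were higher in gland than wing. The gene body alone gave 4 regions higher in wing than gland in place of 11, 5 higher in leg than gland in place of 12, and 1 higher in WT than EcR-RNAi wing in place of 2; fewer regions are then counted. The peaks fell to 22, 24 and 7 in the WT wing, WT leg and gland lists with a −log10 q-value of at least 10, from 50, 49 and 34. In the gene body alone there were 28 in WT wing, 27 in WT leg and 20 in EcR-RNAi wing, the last from 31. No paired analysis was possible because each table gives 1 fold per region over both libraries of a group; leaving out a library was not run for the same reason. The gland calls with SEs of 0.32 to 0.38 at vri regions 3 and 4 rest on the lowest counts.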

Other observations

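Most gland peaks that had a WT wing peak close by sat at a lower coordinate than that peak. Over 7443 gland peaks with a WT wing peak centre within 250 bp, the median difference of gland minus wing was -60.0 bp (quartiles -112 and 34.5), and 68.6% of these peaks lay lower. The same measure was 0 bp for 21523 WT leg peaks and 0 bp for 14362 EcR-RNAi wing peaks. At vri and E23 it was -85.0 bp over 15 gland peaks, 11 of which lay lower. With gland peaks moved up by 60.0 bp, an alternative chosen after seeing the data, 17 of the 29 regions overlapped a gland peak in place of 16. The cause of the offset, and whether it touches the fold changes of the authors' deposited tables, was not tested.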
